A study of Homo sapiens with 8 samples.

Results

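The 10 genes described here are the 4 ErbB receptors (EGFR, ERBB2, ERBB3 and ERBB4), 5 of their ligands (HBEGF, AREG, EREG, TGFA and NRG4) and ERRFI1, a cytoplasmic inhibitor of the receptors. They were chosen by name for their place in the pathway, with earlier results of these data known. All 10 were found among the 57773 features of the table. RNA-seq had been performed on C4-2 cells, a castration-resistant human prostate cancer line derived from LNCaP. The cells were grown in T medium with heat-inactivated FBS and exposed for 24 hours to PBS vehicle in 3 libraries, to metformin at 5 mM in 3 libraries or to phenformin at 1 mM in 2 libraries. The phenformin exposure and its duration rest on the titles and characteristics of those samples, whose treatment text names PBS and metformin alone. Metformin and phenformin are biguanides, and phenformin carries a phenethyl group where metformin carries methyl groups. The doses of the biguanides differed, so a difference between their libraries compares these exposures and not the compounds at a matched dose. All 8 libraries came from 1 cell line, and the labels do not say whether replicates were separate cultures, so the spread behind every p-value may be technical.

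ErbB receptors are tyrosine kinases that pair when a ligand binds and then phosphorylate each other, which brings adaptor proteins to the membrane and activates the MAPK and PI3K pathways. EGFR binds EGF, TGFA, AREG, EREG and HBEGF. ERBB2 has no known ligand and serves as the favored partner of the other receptors, while ERBB3 has a weak kinase, binds neuregulins and recruits PI3K. ERBB4 binds neuregulins, NRG4 among them, as well as EREG and HBEGF. The ligands are made as membrane proteins that ADAM proteases release. ERRFI1 (also called MIG6 or RALT) binds the kinase domains of active ErbB receptors, blocks them and promotes receptor internalization, and its gene is itself switched on by growth factor signaling and by stress. In the prostate, ErbB signaling is studied chiefly for its link to tumor growth after castration.

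The promoters of the 3 genes of this set whose RPKM was higher in every metformin library than in every PBS library are shown because these genes share that direction, although AREG had no reads with phenformin. Each run gives 250 bases before and 50 bases after the RefSeq start site, 5′ to 3′ on the strand of the gene, in build GRCh38.p14. The expression table was made on GRCh37.p13, so these positions cannot be carried over to it. Capitals mark exact matches to 4 motifs on either strand, the cyclic AMP response element (CRE, TGACGTCA), the AP-1 element (TGACTCA or TGAGTCA), the GC box (GGGCGG or CCGCCC) and the TATA box (TATAAA or TTTATA).
ERRFI1, chr1:8026260-8026559, minus strand: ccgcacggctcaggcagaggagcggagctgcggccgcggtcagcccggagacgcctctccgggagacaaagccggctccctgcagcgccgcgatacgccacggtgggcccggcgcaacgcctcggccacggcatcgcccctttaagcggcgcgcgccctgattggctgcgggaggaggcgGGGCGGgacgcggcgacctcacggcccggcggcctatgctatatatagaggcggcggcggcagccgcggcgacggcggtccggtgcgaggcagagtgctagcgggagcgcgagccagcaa
HBEGF, chr5:140346554-140346853, minus strand: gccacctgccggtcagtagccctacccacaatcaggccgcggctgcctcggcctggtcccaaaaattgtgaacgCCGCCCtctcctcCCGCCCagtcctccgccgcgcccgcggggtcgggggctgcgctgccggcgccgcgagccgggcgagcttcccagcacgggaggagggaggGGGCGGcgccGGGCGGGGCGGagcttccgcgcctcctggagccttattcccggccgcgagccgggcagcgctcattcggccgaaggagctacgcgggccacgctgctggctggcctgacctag
AREG, chr4:74444886-74445185, plus strand: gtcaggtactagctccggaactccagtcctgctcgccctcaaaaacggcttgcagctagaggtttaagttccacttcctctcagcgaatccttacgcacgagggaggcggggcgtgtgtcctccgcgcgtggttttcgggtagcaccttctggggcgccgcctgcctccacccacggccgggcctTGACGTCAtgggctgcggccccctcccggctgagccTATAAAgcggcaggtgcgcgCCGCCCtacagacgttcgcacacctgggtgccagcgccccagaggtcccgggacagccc
The AREG window held a CRE whose first base lay 65 bases before the start site, a TATA box at 29 bases and a GC box at 9 bases. The ERRFI1 window held 1 GC box, at 70 bases. The HBEGF window held 5 GC boxes, at 176, 163, 73, 63 and 58 bases, and the last pair overlapped by a base. Of 35116 RefSeq promoters of the same length, 1.85% held a CRE, 4.95% an AP-1 element, 45.0% a GC box and 11.5% a TATA box. Windows were found for 9 of the 10 genes, 11 windows in all, and AREG was the only one of the 9 with a CRE. A match in these windows describes the letters and does not show that a factor binds there.

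Depth was 44774670 mapped reads in PBS replicate 1 and 13837455 to 15898491 in the other 7 libraries. The step between neighboring low RPKM values gave these totals. PBS replicate 1 held at least as many reads as PBS replicates 2 and 3 together in 99.0% of 11730 tested genes. It differed from each of them by 0.870 and 0.934 of the spread that counting error alone would give, against 1.41 to 1.68 for the other pairs of replicates, and the labels do not say whether its reads include theirs. The tests of the 10 genes and the counts of calls were also refitted without it, but not the values of other single genes, the profile search or the order of levels. The luminal prostate markers KLK3, KLK2, TMPRSS2, HOXB13, FOLH1, KRT8 and KRT18 reached 1 RPKM in every library. KLK3, KLK2, HOXB13 and FOLH1 were lower in every treated than in every PBS library, and TMPRSS2 in every metformin library, while KRT8 was at 38.1 to 42.5, 38.4 to 46.2 and 41.1 to 43.1 RPKM and KRT18 at 57.0 to 58.5, 59.7 to 71.3 and 74.0 to 77.5 RPKM. None of the 4 basal, 4 neuroendocrine or 4 immune markers, nor either of 2 endothelial markers, reached 1 RPKM in any library, and CD3E and PTPRC had no reads. Of 5 stromal markers 2 reached it, and the 5 summed to 2.11 to 2.16, 2.30 to 2.52 and 3.41 to 3.53 RPKM in PBS, metformin and phenformin libraries. The higher phenformin sum was COL1A1, at 1.16 to 1.32, 1.15 to 1.36 and 2.52 to 2.82 RPKM, whereas COL1A2 and DCN had no reads with phenformin. The part of these shifts in the ErbB results was not tested. In bulk RNA, fewer cells of a kind and less RNA per cell cannot be told apart.

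Metformin exposure raised ERRFI1 and HBEGF and lowered ERBB3, ERBB2 and EGFR. NRG4 and TGFA were lower too, but they entered the test only through the PBS libraries. Differences were tested with limma on log2(RPKM + 0.1), with p-values adjusted by Benjamini-Hochberg across every gene tested and a limit of 0.05, so a log2 difference understates the change of a gene near 0. A gene was tested when it reached 1 RPKM in at least 3 of the 6 metformin and PBS libraries, or in at least 2 of all 8 for phenformin. Of the 10 genes, 7 were tested and 2 were higher and 5 lower after metformin. NRG4 and TGFA are included in the 5. Over all 11730 genes tested, 28.2% were called higher and 54.8% lower, 82.9% in all, and their median log2 difference was -0.30. A call in itself therefore says little about these 7 genes, and their sizes are given both as measured and relative to that median. When libraries were centered on the median difference, 40.9% of all genes were called higher and 40.9% lower, and 2 of the 7 were higher and 4 lower, since EGFR was no longer called.

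**Figure D1:**
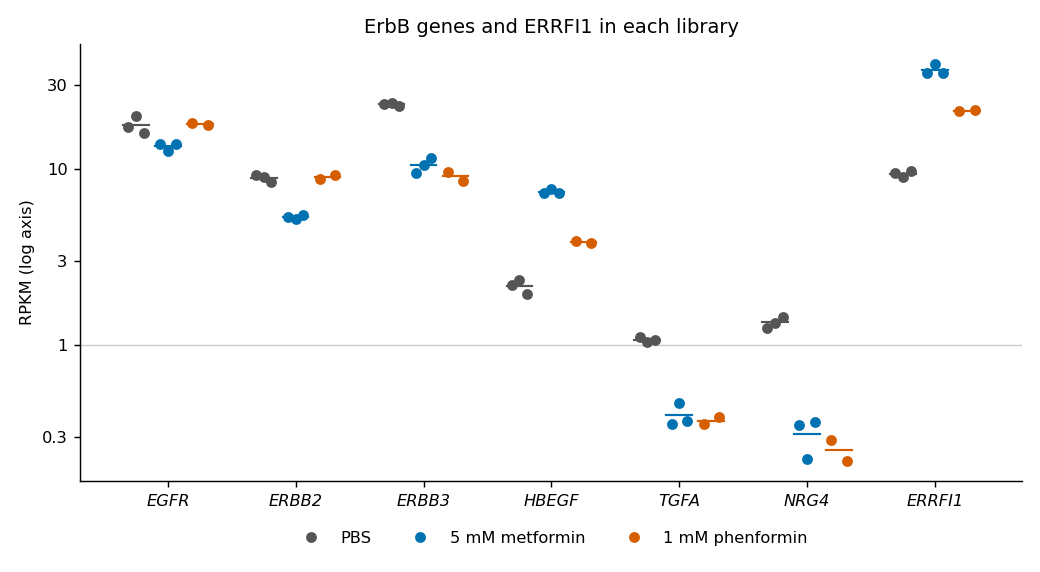
Points are the RPKM of each library on a log axis for the 7 genes tested, by exposure, and short bars are group means. The gray line marks the expression limit of 1 RPKM, which TGFA and NRG4 passed only in the PBS libraries. ERRFI1 lay at 8.99 to 9.66 in PBS and at 34.8 to 39.4 RPKM in metformin libraries.

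ERRFI1 had the largest rise of the 7 genes tested. Its RPKM was 9.41, 8.99 and 9.66 in the PBS libraries, 34.8, 39.4 and 35.1 in the metformin libraries and 21.3 and 21.5 in the phenformin libraries. The 3 groups did not overlap, with metformin highest and PBS lowest. The mean rose 3.89-fold with metformin, a log2 difference of 1.95 (SE 0.061, n = 3 and 3, adjusted p = 8.8e-08 by limma), which lay 2.25 above the median of all genes and at percentile 97.7 of them. With phenformin it rose 2.28-fold, a log2 difference of 1.18 (SE 0.063, n = 2 and 3, limma adjusted p = 5.1e-07). Phenformin libraries lay below metformin libraries by a log2 difference of -0.77 (95% confidence interval -0.91 to -0.62, limma adjusted p = 1.7e-05). Without PBS replicate 1 the log2 rise with metformin was again 1.95. The count behind each value was 521 to 2625 reads.

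HBEGF, an EGFR and ERBB4 ligand anchored in the membrane until shed, followed the same order of groups. Its RPKM was 2.18, 2.32 and 1.93 with PBS, 7.29, 7.71 and 7.27 with metformin, and 3.88 and 3.76 with phenformin. Again no group overlapped another. Metformin raised it 3.46-fold, a log2 difference of 1.75 (SE 0.079, limma adjusted p = 4.3e-07), at percentile 97.1 of all genes tested. Phenformin raised it 1.78-fold, a log2 difference of 0.81 (SE 0.083, limma adjusted p = 2.6e-05). The phenformin libraries were lower than the metformin libraries by a log2 difference of -0.94 (95% confidence interval -1.13 to -0.75, limma adjusted p = 2.4e-05).

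The receptors fell to different degrees. ERBB3 had the highest RPKM of the 10 genes in PBS libraries, at 23.3, 23.7 and 22.7, and stood at 9.51, 10.5 and 11.5 with metformin and 9.57 and 8.56 with phenformin. Every PBS library lay above every treated library, while the ranges of the biguanides overlapped. The log2 difference was -1.14 with metformin (SE 0.071, limma adjusted p = 2.0e-06), -0.83 relative to the median of all genes, and -1.35 with phenformin (SE 0.082, limma adjusted p = 1.1e-06). The difference between phenformin and metformin was -0.21 (95% confidence interval -0.40 to -0.02) and lay at the limit, with a limma adjusted p of 0.0491. It was no longer called when any 1 of the 3 PBS libraries, which set only the spread here, was left out (adjusted p = 0.0705, 0.0662 and 0.0631 without replicates 1, 2 and 3), without metformin replicate 2 or 3 (0.0888 and 0.122), or without phenformin replicate 2 (0.304).

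ERBB2 and EGFR separated the biguanides. ERBB2 was at 9.20, 8.93 and 8.44 RPKM with PBS, at 5.34, 5.16 and 5.48 with metformin and at 8.69 and 9.22 with phenformin. Each metformin library lay below all others, and the phenformin and PBS ranges overlapped. The log2 difference was -0.72 with metformin (SE 0.056, limma adjusted p = 7.2e-06), or -0.42 relative to all genes, and 0.02 with phenformin (95% confidence interval -0.12 to 0.15, limma adjusted p = 0.817). The difference between the biguanides was itself past the limit, at 0.74 (95% confidence interval 0.60 to 0.87, limma adjusted p = 1.6e-05). Relative to other genes the phenformin value shifted, since after centering on the median difference ERBB2 was higher than in PBS by 0.19 (limma adjusted p = 0.0080).

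EGFR was at 17.3, 20.0 and 15.9 RPKM with PBS, at 13.9, 12.6 and 13.8 with metformin and at 18.1 and 17.7 with phenformin. The metformin libraries lay below all others, by less than the gaps seen for ERBB2 and ERBB3. The log2 difference with metformin was -0.40 (SE 0.086, limma adjusted p = 0.0028), but relative to the median of all genes it was -0.09, and after centering it was not called (adjusted p = 0.280). EGFR stood at percentile 45.8 of the genes tested, so its fall was close to that of the typical gene. With phenformin the difference was 0.02 (95% confidence interval -0.18 to 0.23, limma adjusted p = 0.840). Phenformin libraries were above metformin libraries by 0.42 (95% confidence interval 0.21 to 0.62, limma adjusted p = 0.0034), and by 0.29 after centering (adjusted p = 0.0129).

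**Figure D2:**
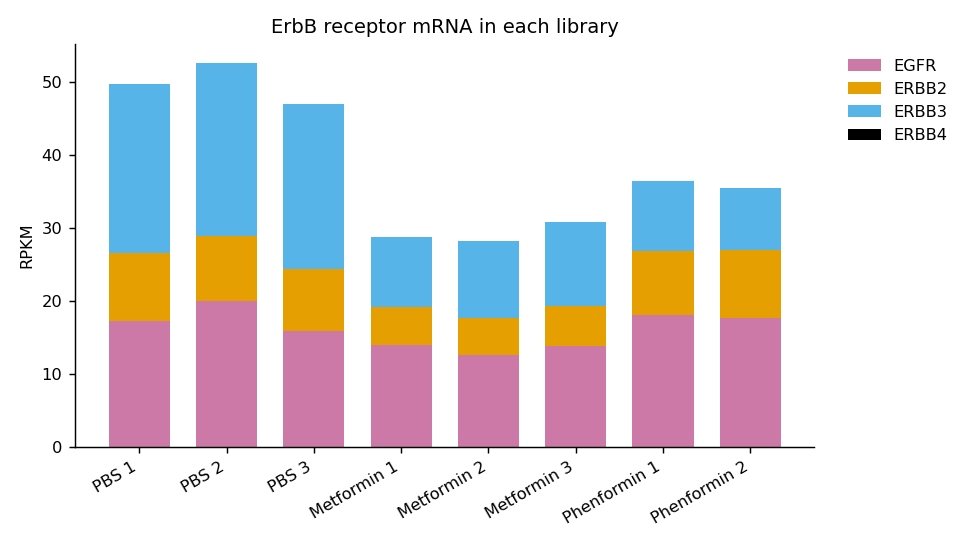
Stacked bars give the RPKM of EGFR, ERBB2 and ERBB3 in each library, and ERBB4 is too low to be seen. The sum lay at 47.1 to 52.6 in PBS, 28.3 to 30.8 in metformin and 35.5 to 36.4 in phenformin libraries, with the ERBB3 segment shorter in all treated libraries.

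The makeup of the receptor pool changed with exposure. Levels per kilobase depend on the length given to each gene, here 12961 bases for EGFR, 10321 for ERBB2 and 8651 for ERBB3. Whether the transcripts in these cells have those lengths was not tested, which limits every comparison of level between genes here. The 4 receptors together summed to 49.8 ± 2.8 RPKM (SD, n = 3) with PBS, 29.3 ± 1.4 (n = 3) with metformin and 36.0 ± 0.64 (n = 2) with phenformin. ERBB3 made up 45.1 to 48.2% of this sum in PBS, 33.1 to 37.4% in metformin and 24.1 to 26.3% in phenformin libraries. EGFR made up 33.9 to 38.0%, 44.5 to 48.3% and 49.8 to 49.9%. On the RPKM scale ERBB3 was thus the leading receptor in every PBS library and EGFR in every treated library. By reads EGFR led in the PBS libraries too, with 10054, 3584 and 3151 against 9017, 2838 and 2995. The lead of ERBB3 with PBS therefore rests on the lengths. ERBB2 held 17.0 to 18.5% with PBS and 17.8 to 18.6% with metformin, and 23.9 to 26.0% with phenformin. Ratios within a library do not depend on how libraries are scaled, but they do depend on the lengths. The ratio of ERBB2 to ERBB3 was 0.372 to 0.395, 0.476 to 0.561 and 0.908 to 1.08 in PBS, metformin and phenformin libraries.

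The inhibitor gained on the receptors it binds. The ratio of ERRFI1 to EGFR RPKM was 0.450 to 0.606 in PBS, 2.50 to 3.14 in metformin and 1.17 to 1.21 in phenformin libraries. The ratio of ERRFI1 to the sum of the 4 receptors was 0.171 to 0.205, 1.14 to 1.39 and 0.584 to 0.604. By RPKM ERRFI1 thus exceeded EGFR in each of the 5 treated libraries and in no PBS library. That crossing rests on lengths of 4186 bases for ERRFI1 and 12961 for EGFR. By reads ERRFI1 stayed below EGFR with phenformin, at 1413 and 1312 against 3733 and 3357. The same held in metformin replicates 1 and 3, at 2239 and 2079 against 2770 and 2535. All of these values are mRNA, and protein was not part of the table.

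TGFA, which binds EGFR, was at 1.10, 1.03 and 1.07 RPKM with PBS, at 0.354, 0.469 and 0.370 with metformin and at 0.355 and 0.386 with phenformin. NRG4, a neuregulin that binds ERBB4, was at 1.25, 1.34 and 1.45 RPKM with PBS, at 0.349, 0.225 and 0.365 with metformin and at 0.288 and 0.218 with phenformin. Both ligands were lower in every treated library than in every PBS library. Both passed the expression limit only through the PBS libraries, so their calls and their differences from PBS are descriptions of a selected pair.

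The log2 difference of TGFA was -1.24 with metformin (SE 0.16) and -1.31 with phenformin (SE 0.18). That of NRG4 was -1.82 with metformin (SE 0.19) and -2.04 with phenformin (SE 0.23). Between phenformin and metformin neither passed the limit, with differences of -0.07 for TGFA (95% confidence interval -0.49 to 0.34, limma adjusted p = 0.741) and -0.22 for NRG4 (95% confidence interval -0.73 to 0.30, limma adjusted p = 0.424). The treated libraries held only 26 to 37 reads of TGFA and 16 to 27 of NRG4. Under quantile normalization the metformin difference of TGFA was 0.09 (adjusted p = 0.622) in place of a fall.

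**Figure D3:**
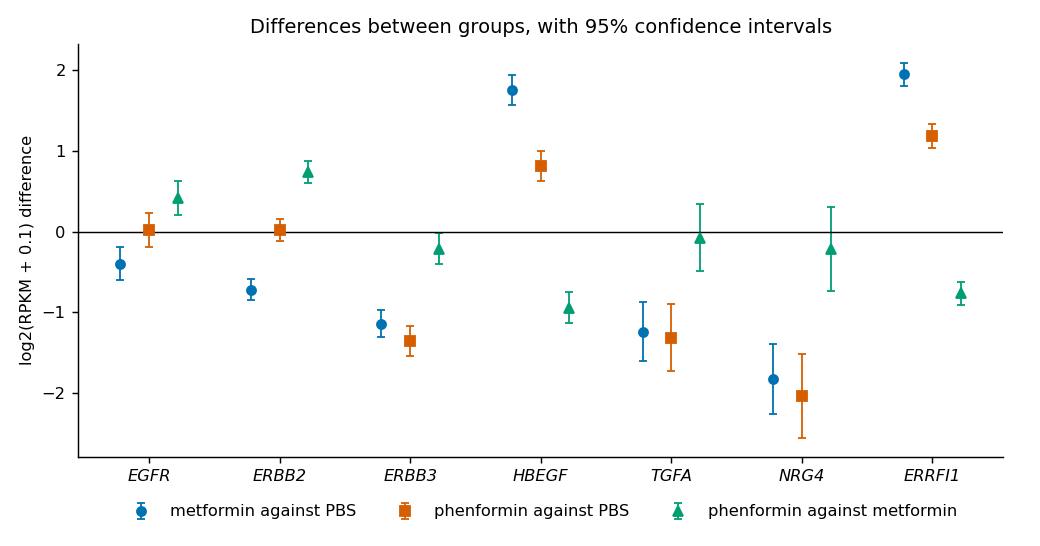
Points are differences in log2(RPKM + 0.1) for the 7 genes tested, with 95% confidence intervals from limma, for metformin against PBS (circles), phenformin against PBS (squares) and phenformin against metformin (triangles). ERRFI1 and HBEGF are above 0 and ERBB3, TGFA and NRG4 below 0 against PBS with both biguanides, while ERBB2 and EGFR are below 0 with metformin and at 0.02 with phenformin.

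In the phenformin comparison 2 of the 7 tested genes were called higher (ERRFI1 and HBEGF) and 3 lower (ERBB3, TGFA and NRG4). TGFA and NRG4 are the selected pair described above. Of all 12172 genes tested, 31.2% were higher and 45.4% lower, 76.5% in all, and the median log2 difference was -0.15. Between phenformin and metformin 2 were higher (ERBB2 and EGFR) and 3 lower (ERRFI1, HBEGF and ERBB3), against 39.5% higher and 25.6% lower of all genes, 65.1% in all, and a median of 0.13. The metformin and phenformin comparisons share their PBS libraries, and the last shares its libraries with both, so they are not independent of each other. The 3 comparisons without PBS replicate 1 gave the same calls for these genes, apart from ERBB3 between the biguanides.

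Among the 5 ligands of the set HBEGF gained in share. Together they summed to 4.50 to 4.69, 8.56 to 8.97 and 4.37 to 4.54 RPKM in PBS, metformin and phenformin libraries. HBEGF supplied 43.0 to 49.5% of the sum in PBS, 81.2 to 86.6% in metformin and 85.6 to 86.2% in phenformin libraries. EGF, which is described below and lay above HBEGF in PBS libraries, is not in that sum, and with EGF added the share of HBEGF was 26.7 to 30.6%, 60.7 to 65.2% and 53.2 to 55.2%. With phenformin the sum of the 5 overlapped that of PBS while its makeup differed, since the rise of HBEGF was offset by the lower TGFA and NRG4. The ratio of HBEGF to TGFA was 1.81 to 2.25, 16.4 to 20.6 and 9.75 to 10.9 in PBS, metformin and phenformin libraries.

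AREG, amphiregulin, an EGFR ligand, stayed below the expression limit and was not tested with the other genes. It had 1, 0 and 1 reads in the PBS libraries, 24, 13 and 13 in the metformin libraries and 0 and 0 in the phenformin libraries, or 0.0136, 0 and 0.0398 RPKM against 0.948, 0.496 and 0.557 RPKM and 0. Every metformin library lay above every PBS library. Scaled to mapped reads, metformin stood above PBS by a ratio of 40.6 (95% counting interval 10.7 to 345), and by 32.0 (5.49 to 1290) against PBS replicates 2 and 3 alone. Against phenformin, with no reads, the ratio was 11.2 when 3 reads over the group were assumed in their place. For the observed 50 and 0 reads the 95% counting interval began at 8.76. The exact two-sided permutation test over 3 and 3 libraries gave p = 0.10 for the difference of the means from PBS, the smallest p this design allows. With no expression limit in the limma fit, AREG was called higher with metformin (log2 difference 2.67, adjusted p = 2.2e-04), a size that depends on the pseudocount. Counting intervals cover counting error only.

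The annotation also listed AREGB, a near-identical copy of AREG, and how reads were divided between them is uncertain. AREGB had 4, 1 and 1 reads with PBS, 3, 5 and 9 with metformin, and 1 and 0 with phenformin. Of the copies together, metformin libraries held 67 reads and PBS libraries 8, a ratio of 13.6 after scaling to mapped reads (95% counting interval 6.53 to 32.8), with p = 0.10 by the same exact permutation test. EREG, epiregulin, had 1, 0 and 1 reads with PBS, 3, 0 and 0 with metformin, and 1 and 0 with phenformin. ERBB4 had 2, 1 and 1 reads with PBS, 1, 2 and 0 with metformin, and 1 and 1 with phenformin. No difference in EREG or ERBB4 was detectable at this depth, and NRG4 was thus measured in libraries with almost no reads of its receptor.

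**Figure D4:**
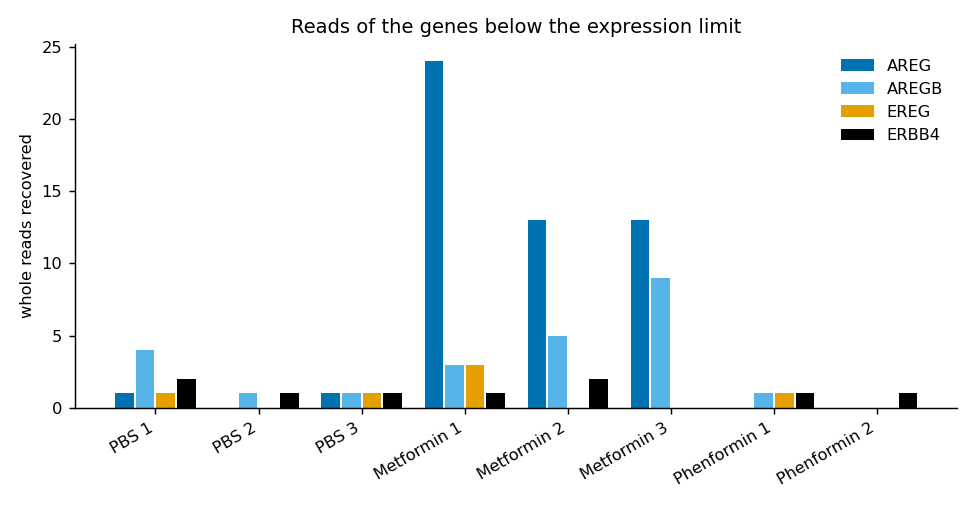
Bars give the whole reads recovered for AREG, its copy AREGB, EREG and ERBB4 in each library, starting at 0. AREG reaches 13 to 24 reads in the metformin libraries and at most 1 in any other library, and EREG and ERBB4 have at most 3 reads anywhere.

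The order of the 10 genes by mean RPKM changed at its head. With PBS it ran ERBB3, EGFR, ERRFI1, ERBB2, HBEGF, NRG4 and TGFA, and of these only ERRFI1 and ERBB2 overlapped as neighbors. With metformin it ran ERRFI1, EGFR, ERBB3, HBEGF, ERBB2, AREG, TGFA and NRG4, and only TGFA and NRG4 overlapped. With phenformin it ran ERRFI1, EGFR, ERBB3, ERBB2, HBEGF, TGFA and NRG4, and only ERBB3 and ERBB2 overlapped. HBEGF therefore passed ERBB2 in RPKM in the metformin libraries only. By reads it stayed below ERBB2 there, at 311 to 370 against 802 to 847, so this order too rests on gene lengths.

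For each tested gene, about 7711 genes with a mean of at least 5 RPKM in a group were searched for similar profiles. Each profile was set to its own mean in the PBS libraries. The 3 genes of most similar profile had the smallest root mean square difference in log2(RPKM + 0.1) over the 8 libraries. For ERRFI1 they were DUSP16, HSP90AA1 and CREBZF (0.048 to 0.070 on the log2 scale), a MAPK phosphatase, a heat shock protein and a bZIP factor. DUSP16 averaged 9.92, 38.9 and 22.6 RPKM and HSP90AA1 averaged 228, 861 and 549 RPKM in PBS, metformin and phenformin libraries. For HBEGF they were APC, ZSWIM6 and RP11-213G2.3 (0.075 to 0.097). For ERBB2 they were VARS2, TBCD and WDR91 (0.037 to 0.047), for EGFR MAU2, GUSBP11 and PSMD3 (0.049 to 0.066) and for ERBB3 MBTPS2, ZKSCAN1 and EDEM2 (0.063 to 0.074). For TGFA they were ERMP1, PDIA6 and ARL6IP5 (0.086 to 0.10), and for NRG4 JKAMP, SLC44A4 and RCAN3 (0.13 to 0.16). Likeness over 8 libraries of 3 groups says nothing of shared control.

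Of 72 further genes of the pathway in 5 lists, 60 were tested, and 28 were higher, 25 lower and 7 not called after metformin. With phenformin the counts were 23, 24 and 13. Over all genes tested, 28.2% were higher and 54.8% lower with metformin and 31.2% and 45.4% with phenformin, and the counts of each list below stand beside these shares. After centering on the median difference 35 of the 60 were higher and 12 lower with metformin, beside 40.9% and 40.9% of all genes, and 26 and 18 with phenformin, beside 39.5% and 37.3%. GAB1, GAB2 and SPRY2 reached 1 RPKM in no PBS library and so were tested only through treated libraries where they were higher, and these 3 are included in the counts. Of the 6 other ErbB ligands only EGF was tested, and BTC, EPGN, NRG1, NRG2 and NRG3 stayed at or below 0.326 RPKM. EGF averaged 2.82 ± 0.070, 2.98 ± 0.37 and 2.61 ± 0.21 RPKM in PBS, metformin and phenformin libraries, and was not called in any comparison (limma adjusted p = 0.513, 0.364 and 0.166).

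**Figure D5:**
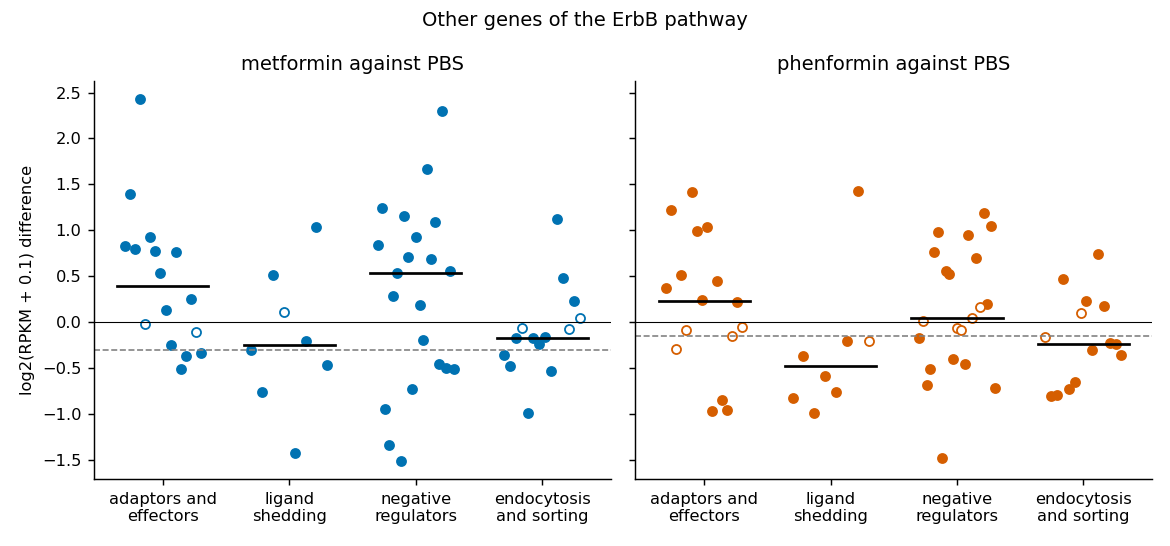
Points are differences in log2(RPKM + 0.1) from PBS for the tested genes of 4 pathway lists, left with metformin and right with phenformin. Filled points passed the limma test, open points did not, black bars are list medians and the dashed line is the median of all genes tested (-0.30 and -0.15). The median of the negative regulators is 0.53 with metformin and 0.05 with phenformin.

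Among adaptors and proximal effectors 16 of 18 were tested. With metformin 10 were higher and 4 lower (median 0.39), against 28.2% higher and 54.8% lower of all genes. With phenformin 9 were higher and 3 lower (median 0.23), against 31.2% and 45.4% of all genes. After centering, the counts were 12 and 1 with metformin and 9 and 3 with phenformin. GAB2, a docking protein for PI3K and SHP2, averaged 0.955 ± 0.022 RPKM with PBS, 5.59 ± 0.53 with metformin and 1.40 with phenformin, log2 differences of 2.43 and 0.51 that are given as a description because it passed the expression limit only through the treated libraries. The CRK family adaptor CRKL rose from 13.4 ± 0.37 to 35.5 ± 1.9 and to 31.4 ± 0.091 RPKM (1.40 and 1.22). On the log2 scale CRK itself rose by 0.83 with metformin and 0.38 with phenformin, and NCK1, another adaptor, by 0.78 and 1.00. GRB7, an ERBB2-binding adaptor, rose by 0.93 with metformin and by 1.42 with phenformin. PLCG1, the phospholipase that binds EGFR, rose by 1.03 with phenformin and differed by 0.13 with metformin (limma adjusted p = 0.0456). GRB2, the adaptor that links receptors to SOS and RAS, averaged 21.3 ± 0.22, 21.1 ± 1.4 and 20.1 ± 0.60 RPKM and was not called against PBS. STAT5B with metformin (-0.10) and VAV2 with phenformin (-0.05) were not called either.

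Of the genes for ligand shedding, 8 of 11 were tested, and 2 were higher and 5 lower with metformin (median -0.25) and 1 higher and 6 lower with phenformin (median -0.47). The share lower with metformin was close to the 54.8% of all genes, and 45.4% of all genes were lower with phenformin. After centering, the metformin counts were 3 and 2, and those with phenformin 1 and 4. ADAM17, the main sheddase of HBEGF, AREG and TGFA, differed in direction between the biguanides, at 2.65 ± 0.20 RPKM with PBS, 3.81 ± 0.32 with metformin (log2 difference 0.51, limma adjusted p = 8.2e-04) and 1.29 ± 0.23 with phenformin (-0.99, limma adjusted p = 8.6e-05). The difference between phenformin and metformin was -1.50 (limma adjusted p = 1.7e-05). ADAM10, the main sheddase of EGF, fell by 0.82 on the log2 scale with phenformin (-0.30 with metformin). ADAM15 fell by 0.76 with metformin (-0.36 with phenformin). RHBDF1, an inactive rhomboid that carries ADAM17 to the surface, rose by 1.04 with metformin and 1.43 with phenformin, whereas FRMD8, which stabilizes that complex, fell by 1.42 and by 0.76. ADAM9 averaged 38.6 ± 1.5 RPKM with PBS and 41.7 ± 1.9 with metformin and was not called (adjusted p = 0.0734). RHBDF2 was not called with phenformin (-0.21).

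Of the negative regulators, 21 of 22 were tested, with 13 higher and 8 lower with metformin (median 0.53) and 9 higher, 7 lower and 5 not called with phenformin (median 0.05), where 28.2% of all genes were higher and 54.8% lower with metformin and 31.2% and 45.4% with phenformin. After centering, the counts were 13 and 6 with metformin and 11 and 6 with phenformin. SPRY2, a feedback inhibitor of receptor tyrosine kinase signaling, averaged 0.630 ± 0.10 RPKM with PBS, 3.47 ± 0.40 with metformin and 1.58 ± 0.36 with phenformin, log2 differences of 2.29 and 1.19 that are a description for the same reason as those of GAB2. SOCS5, a suppressor of cytokine signaling that promotes EGFR degradation, rose from 2.40 ± 0.18 to 7.83 ± 0.21 RPKM with metformin (1.67, limma adjusted p = 3.0e-07). It stood at 4.72 ± 0.018 RPKM with phenformin (0.95). PTPN1, a phosphatase of EGFR on the endoplasmic reticulum, fell from 10.3 ± 0.44 to 3.54 ± 0.35 and 3.63 ± 0.44 RPKM (log2 differences -1.52 and -1.48). LRIG1, which promotes the degradation of ErbB receptors, fell from 12.6 ± 0.94 to 4.92 ± 0.20 RPKM with metformin (-1.34, limma adjusted p = 7.5e-07) and stood at 8.80 ± 0.34 with phenformin. LRIG3 and the kinase TNK2 rose by 0.98 and 1.05 with phenformin and by 0.53 and 0.55 with metformin. The ubiquitin ligases CBLB and RNF41, of which RNF41 acts on ERBB3, were not called with phenformin (0.02 and -0.08), while CBLB rose by 1.24 with metformin.

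Of the genes for receptor endocytosis and sorting, 14 of 15 were tested, and 3 were higher and 8 lower with metformin (median -0.17) and 4 higher and 8 lower with phenformin (median -0.23). With metformin these shares were near the 28.2% higher and 54.8% lower of all genes, and with phenformin all genes stood at 31.2% and 45.4%. After centering, these became 6 and 3 with metformin and 5 and 5 with phenformin. RAB5A, the GTPase of early endosomes, rose from 13.5 ± 1.5 RPKM to 29.4 ± 0.73 with metformin and 22.5 ± 0.16 with phenformin (log2 differences 1.12 and 0.74). RAB7A, of late endosomes, rose by 0.48 with metformin and 0.18 with phenformin. EPN2, an epsin that binds ubiquitinated cargo, fell by 0.99 and 0.73, and RAB11A, of recycling endosomes, fell by 0.53 with metformin (-0.30 with phenformin). The clathrin heavy chain CLTC and the AP-2 subunit AP2M1 fell by 0.79 and 0.81 with phenformin (-0.17 and -0.47 with metformin). EPN1 and TSG101 with metformin (-0.06 and 0.04) and AP2A1 and EPS15L1 with phenformin (-0.16 and 0.10) were not called. Of the genes named here as not called, EGF, GRB2, STAT5B, ADAM9, EPN1 and TSG101 with metformin and CBLB and EPS15L1 with phenformin were called higher than in PBS after centering on the median difference. The lists were read by their counts and medians only and were given no test of their own.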

How the data were processed

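RNA-seq libraries (TruSeq mRNA kit, Illumina HiSeq) were mapped and quantified by the authors in CLC Genomics Workbench 7.0, and the deposited values are RPKM per feature and library. The build is GRCh37.p13 per the submitters' processing notes. The annotation release, the strand setting and the handling of reads that map to several places were not stated in those notes or in the methods, so a gene and an antisense partner cannot be told apart. No columns were left out. Groups were taken from the sample labels. Steps between RPKM values gave whole reads in all libraries for 100% of 25529 features above 0 (within 0.01 read), and with them the depth of each library. All genes were fitted with limma 3.58.1 (R 4.3.3) on log2(RPKM + 0.1) with a trended prior, metformin in 6 libraries and both phenformin comparisons in 1 fit of 8. A count model was used only as an alternative, limma-voom on recovered reads. On simulated reads with the means and depths of these libraries, 200 genes were changed at a fixed dispersion of 0.002. Changes of 2-fold were called in 100% of changed genes for metformin, 95.9% for phenformin against PBS and 96.9% for phenformin against metformin. Changes of 1.5-fold were called in 83.8%, 80.0% and 86.5%. False calls made up 3.23%, 6.08% and 6.35% of the simulated calls. The dispersion was not fitted to these replicates, whose pairs without PBS replicate 1 spread by 1.41 to 1.68 times counting error. The shares called may therefore be too high for these data. Alternatives covered pseudocount, expression limit, scaling, variance model, replicate block, a fold threshold, each library left out with the same genes tested, and the reads of PBS replicate 1 less those of replicates 2 and 3. Named genes were all 10 genes of the set and, from each list, up to 4 of largest change past a test and up to 2 of highest level not past it. These genes and the lists were chosen with earlier results of these data known. Promoters are from RefSeq (GRCh38.p14). Tables and plots used Python 3.11.15 with pandas 2.3.3 and scipy 1.17.1. 1 luminal marker of the fixed list is not reported here.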

Additional observations from a re-analysis of the deposited data

How the results depend on the processing

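ERRFI1, HBEGF, ERBB3 and NRG4 against PBS with either biguanide, TGFA against PBS with phenformin, and ERRFI1, HBEGF, ERBB2 and EGFR between the biguanides kept direction and call under all alternatives that tested them. For NRG4 and TGFA this describes a selected pair. Quantile normalization turned TGFA with metformin to 0.092 and EGFR with phenformin to -0.026, neither called, and NRG4 was then called between the biguanides (-0.62, adjusted p = 0.0349). EGFR with metformin was not called after centering on the median difference, on the TPM scale (-0.13) or against a 1.5-fold change, nor was ERBB2 against that change (adjusted p = 0.0526). ERBB3 between the biguanides was also lost with no expression limit (0.0979), on the TPM scale (0.0549), without a trended prior (0.0746) and with PBS replicate 1 reduced (0.0668). Near 0, ERBB2 with phenformin turned to -0.032 with PBS replicate 1 reduced, and leaving out single libraries moved it from -0.026 to 0.058, EGFR with phenformin from -0.053 to 0.11 and TGFA between the biguanides from -0.14 to 0.027. On the TPM scale phenformin raised 4 of the 7 tested genes, EGFR (0.29) and ERBB2 (0.28) being added. The share of all genes called on that scale is not given here, so this count is a description only. The cause of these changes was not tested.

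The labels do not say whether replicate numbers pair the libraries. Deviations of same-numbered libraries from their group means correlated between -0.075 and 0.0064. With 2 or 3 libraries a group these deviations depend on each other, so the correlations cannot decide whether libraries were paired. With the replicate block EGFR with phenformin was -0.0057 in place of 0.02, and ERBB3 between the biguanides was lost (-0.18, adjusted p = 0.133). With it, 2 of the 7 tested genes were higher and 5 lower with metformin, as without it. It changed no other call among the 10 genes. Counts over all genes with the block were 3224 higher and 6358 lower for metformin.

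A mean of at least 5 RPKM, which HBEGF, TGFA and NRG4 did not reach, left ERRFI1 higher and ERBB3, ERBB2 and EGFR lower with metformin. With phenformin it left ERRFI1 higher and ERBB3 lower. It left 16 genes of the 5 lists higher with metformin, beside 2322 of all genes, and 20 lower between the biguanides. Over all genes it left 3300 lower with metformin, 2638 lower with phenformin and 2876 higher between the biguanides, as fewer genes were tested. The numbers tested at this limit are not given here, so these counts are not shares. Against a 1.5-fold change metformin lowered 3 of the 7 tested genes, ERBB3, TGFA and NRG4. Of these TGFA and NRG4 are the selected pair, so the count is a description only. At that threshold 14 of the 60 list genes rose and 5 fell, and 1367 of all 11730 genes rose and 3284 fell. With phenformin 9 of the 60 list genes rose and 8 fell, and 1311 of all 12172 genes rose and 2397 fell. List genes lower with metformin numbered 14 after centering on library medians or quantile normalization and 12 after centering on the median difference, an alternative chosen after seeing the data, or on the TPM scale, in place of 25. Of all 11730 genes, those lower numbered 5420, 5072, 4796 and 5016 in that order, in place of 6427.

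With 2 or 3 libraries a group, changes under 1.5-fold and genes with few reads (AREG, EREG, ERBB4, TGFA and NRG4) were measured least well.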
